A study of Homo sapiens with 3 samples.

Results

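The genes described here are 46 genes of the hypoxia response, glycolysis and glucose sensing, chosen by name: a line of the deposited gene table was taken where its gene symbol equalled that of a listed gene. All 46 were found, each once, among 50867 genes. They were sorted by textbook role into 12 targets of the hypoxia-inducible factors (HIF), 5 HIF subunits and regulators, 17 glycolytic enzymes, 4 regulators of glycolytic flux, 4 transporters of glucose or lactate, and 4 glucose sensors.

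The study searched for genes under the influence of the long non-coding RNA BLACAT2, named LINC00958 in the table, through polyA+ RNA sequencing of UM-UC-3, a long-established line of human bladder cancer cells. All 3 libraries came from cells that had received lentivirus in the presence of polybrene and 2 weeks of puromycin, and that grew in serum-supplemented DMEM under humidified air with added CO2. No low-oxygen or low-glucose arm is named in the labels. The control cells (shControl, n = 1) carried a scramble short hairpin RNA (shRNA), and the shBLACAT2 cells carried either shRNA 1 or shRNA 2 against BLACAT2 (n = 2 as a group, 1 library per hairpin). Each line was selected as a stable line, and the labels do not say whether it was a pool or a clone or whether cultures were repeated. In bulk RNA of this kind, fewer cells of a type and less RNA per cell cannot be told apart.

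In oxygenated cells the prolyl hydroxylases of the EGLN family mark the HIF alpha subunits for capture by VHL and destruction. When oxygen falls, the alpha subunits persist, pair with ARNT and bind DNA at a short core motif near genes of glycolysis, pH control, mitophagy and oxygen sensing itself. Glucose is sensed in parallel by MondoA, the product of MLXIP, which enters the nucleus with MLX when glucose 6-phosphate accumulates and drives TXNIP and ARRDC4, whose arrestin-like products restrain glucose uptake. Cancer cells commonly run glycolysis at a high rate even with oxygen present, and many of the enzymes are shared targets of HIF and MYC.

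The targeted RNA was compared first. Here and below, values given in a row of 3 are in the order control, shRNA 1, shRNA 2, and a pair in parentheses gives the log2 folds over the control of shRNA 1 and shRNA 2. LINC00958 (ENSG00000251381; hg38, chromosome 11, 12961842 to 12989548, minus strand) had 938 counts in the control, 816 in the shRNA 1 library and 1062 in the shRNA 2 library. After scaling for library size and composition, the ratio to the control was 0.735 with shRNA 1 (95% counting interval 0.668 to 0.808) and 0.996 with shRNA 2 (interval 0.911 to 1.09). The depletion named in the labels was therefore not seen in the library labelled shRNA 2, and every direction below belongs to a library by its label. Library totals were between 16216947 and 17670199 counts. Epithelial keratins marked the cells in every library, with KRT7 at 19944, 20236 and 13229 counts, while KRT20 was at 0 in all 3. Of 16 urothelial and epithelial markers, 13 were tested, and their summed level was 3779, 4802 and 2765 CPM (counts scaled to library size). The markers went different ways. CDH1, UPK1B and UPK2 were at least 2-fold higher in both hairpin libraries (5.29% of all tested genes were). TP63, with 85, 8 and 13 counts, was at least 2-fold lower in both (4.50% were). KRT5 was lowest with shRNA 2 (5590, 6605 and 1707 counts). The leukocyte markers CD3D, CD68 and TYROBP and the endothelial markers EMCN and LYVE1 were at 0 in all libraries. Others of these lists were not: CD74 had 1955, 2308 and 2242 counts, CSF1R 1496, 263 and 518, ENG 1349, 1305 and 839, and PDPN 358, 27 and 32. Some were highest with shRNA 2, with ITGAM at 19, 6 and 288 counts, CDH5 at 18, 42 and 66, and KDR at 13, 4 and 41. Over the marker lists, the summed levels of control, shRNA 1 and shRNA 2 were 230.5, 144.6 and 178.6 CPM for 14 leukocyte genes (4 tested) and 123.7, 79.66 and 61.01 CPM for 14 endothelial genes (5 tested). For 12 fibroblast and smooth muscle genes (5 tested) they were 370.0, 22.99 and 20.92 CPM. In the control this was mostly COL1A1, which had 5253, 328 and 162 counts. DCN had 2, 2 and 1 counts, and ACTA2 was highest with shRNA 2 (38, 38 and 107 counts). Transcripts of the mitochondrial genome took 3.88%, 4.58% and 2.51% of the counts. The part of these differences in the results below was not tested.

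Promoter stretches of 7 of the genes are shown because these genes, picked after their values were seen, are among those furthest from the control in their roles and because the motifs through which HIF and MondoA bind can be read in them. They come from the RefSeq promoter table of GRCh38.p14, each lies within the 250 bases upstream of an annotated start, and each is written 5′ to 3′ on the strand of the gene. In the first 5 and in the last, capitals mark ACGTG or GCGTG on either strand, the HIF core motif (read as CACGT and CACGC on the other strand). Where ACGTG is found on both strands at 1 place the letters are CACGTG, the E-box that MYC and MondoA family proteins also bind. In the TXNIP stretch capitals mark 2 CACGNG sites (N is any base) with 5 bases between them and those bases, a spacing of the kind called a carbohydrate response element. The stretches were ANGPTL4 at chr19:8363905-8363984 (plus strand), BNIP3 at chr10:131982014-131982083 (minus), PFKFB3 at chr10:6202782-6202861 (plus), PGK1 at chrX:78104008-78104107 (plus), LDHA at chr11:18394313-18394387 (plus), TXNIP at chr1:145996610-145996709 (minus) and ARRDC4 at chr15:97960483-97960582 (plus).
ANGPTL4: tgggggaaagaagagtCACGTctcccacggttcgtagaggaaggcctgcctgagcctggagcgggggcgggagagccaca
BNIP3: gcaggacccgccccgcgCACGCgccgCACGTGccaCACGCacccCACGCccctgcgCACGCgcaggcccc
PFKFB3: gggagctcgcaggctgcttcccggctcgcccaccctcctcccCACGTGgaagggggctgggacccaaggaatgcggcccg
PGK1: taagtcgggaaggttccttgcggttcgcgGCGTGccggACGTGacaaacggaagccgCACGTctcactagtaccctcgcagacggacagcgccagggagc
LDHA: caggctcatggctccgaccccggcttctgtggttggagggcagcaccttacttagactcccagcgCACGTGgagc
TXNIP: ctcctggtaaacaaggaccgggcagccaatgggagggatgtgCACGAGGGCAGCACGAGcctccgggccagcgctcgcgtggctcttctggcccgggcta
ARRDC4: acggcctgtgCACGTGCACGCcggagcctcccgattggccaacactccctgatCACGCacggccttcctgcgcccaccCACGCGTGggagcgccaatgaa

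The table gave 73 such 250-base windows for 41 of the 46 genes and none for NDRG1, BNIP3L, VHL, SLC2A3 and SLC16A1. ACGTG or GCGTG on either strand was found in 44 of the 73 windows (60.3%), against 43.2% of all 35116 windows in the table. By role it was found in 11 of 13 windows of HIF targets (84.6%), 5 of 6 of flux regulators (83.3%), 19 of 37 of glycolytic enzymes (51.4%), 4 of 6 of glucose sensors (66.7%), 3 of 6 of transporters and 2 of 5 of HIF subunits and regulators (40.0%). CACGTG was found in 12.3% of the windows of these genes and in 6.34% of all windows. The spaced pair was found in 1 window of these genes, that of TXNIP, and in 16 windows of the whole table (0.0456%). Only the pattern seen in the TXNIP stretch was searched, so pairs of other forms were not counted. Windows of 1 gene can overlap, so these shares are over windows and not over independent genes. A match says only that the letters are present. Windows of HK2 and PFKL, which lay above the control in both libraries, also held ACGTG or GCGTG. None was found for EGLN3, which lay below it in both.

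Across the 45 genes whose mean reached 1 CPM, levels were mostly below the control in both hairpin libraries, by more with shRNA 2 than with shRNA 1. The median log2 fold over the control was −0.33 with shRNA 1 and −0.92 with shRNA 2, where the medians over all 15132 tested genes were 0.01 and 0.04. ALDOC, the brain-type aldolase, was the gene left untested, with 12, 7 and 16 counts. In both libraries 34 of 45 genes (75.6%) lay below the control, against 34.1% of all tested genes, and 2 (4.44%), HK2 and PFKL, lay above it, against 37.1%. With library totals as the scaling these were 29 and 6 genes, and the medians over all tested genes rose to 0.14 and 0.24. The shares of all tested genes by sign are not given for that scaling. Singly, 9 of 45 genes were at least 2-fold lower with shRNA 1, against 7.38% of all tested genes, and 22 (48.9%) with shRNA 2, against 8.76%. At least 2-fold higher were 0 with shRNA 1, against 7.92%, and 1 (2.22%) with shRNA 2, against 13.0%. At least 2-fold below the control in both libraries stood 8 genes (17.8%, against 4.50% of all tested genes), namely ANGPTL4, NDRG1, BNIP3, EGLN3, PFKFB3, PDK1, ARRDC4 and MLXIP. None stood at least 2-fold above it in both, against 5.29% of all tested genes. With library totals in place of the composition-based scaling, 5 of the 8 kept that size (3.65% of all tested genes had it), and BNIP3, PDK1 and MLXIP did not. With a hairpin library left out, the rule could be applied only to the remaining library, which is a looser rule. Without the shRNA 1 library 21 genes were at least 2-fold lower, where 9.34% of all tested genes were. Without the shRNA 2 library 9 were, where 7.31% of all tested genes were. Both folds of a gene share the single control library, so a low or high control value moves them together.

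No gene of the 46 passed edgeR's quasi-likelihood test of both hairpin libraries against the control at a Benjamini-Hochberg adjusted p below 0.05, which 6 of the 15132 tested genes (0.0397%) passed. At an unadjusted edgeR p below 0.05 stood 9 of the 45, against 10.2% of all tested genes. DESeq2, run as another setting, gave 3 of the 45 (6.67%, against 3.49%), and limma gave 0 over all genes tested, with 9 of the 45 at an unadjusted limma p below 0.05 (9.41% of all tested genes). The 3 were NDRG1 (DESeq2 adjusted p = 4.31e-08), ANGPTL4 (0.00114) and PFKFB3 (0.00846). For these 3 genes the adjusted p over all tests run reached up to 0.747. The edgeR test has 1 residual degree of freedom, from the spread between the shRNA 1 and shRNA 2 libraries, and the single control adds none. In that spread, differences between hairpins, between lines and of technique cannot be told apart. The p-values cover no spread between repeated cultures.

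**Figure D1:**
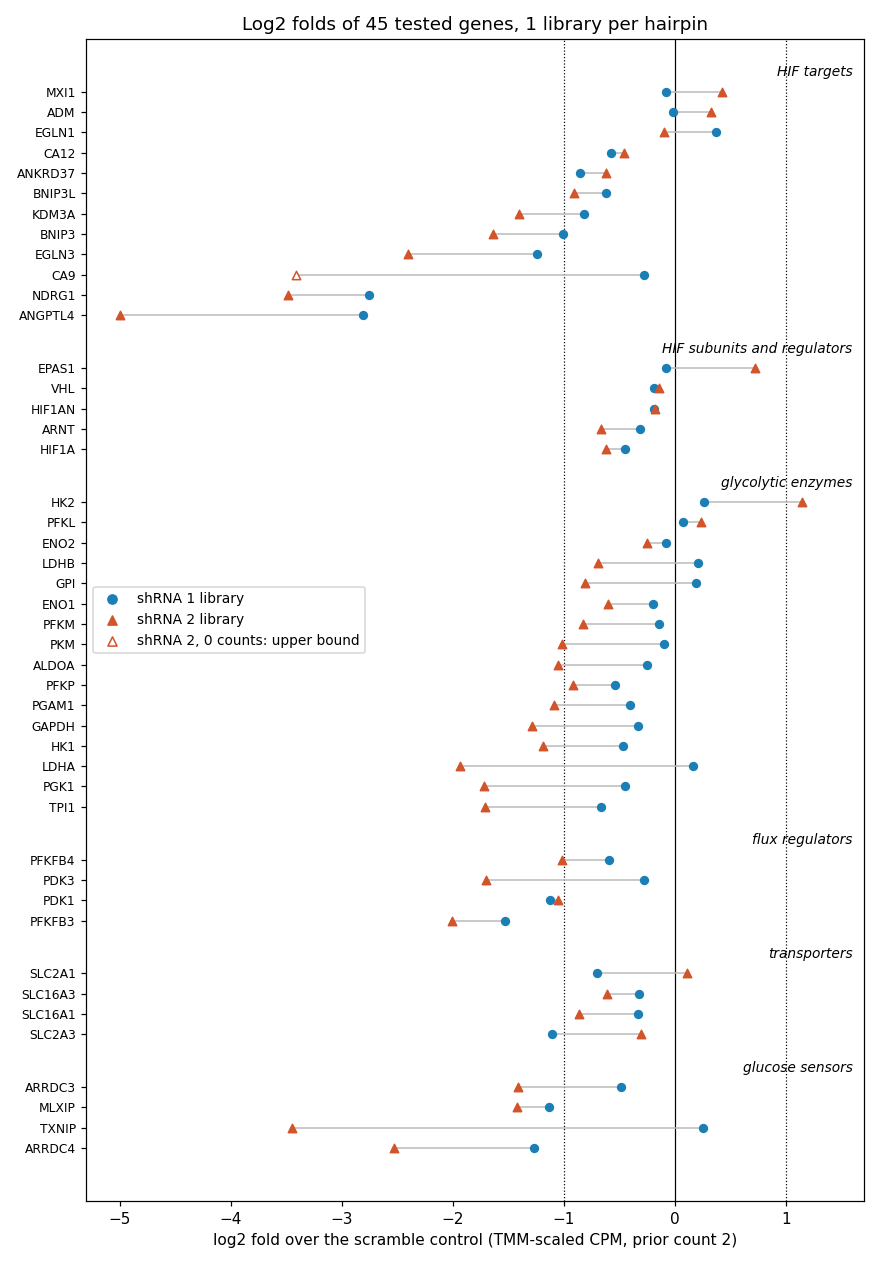
Log2 fold over the scramble control for the 45 tested genes, grouped by role, with the shRNA 1 library as circles and the shRNA 2 library as triangles; dotted lines mark a 2-fold difference, and the open triangle of CA9, which had 0 counts with shRNA 2, marks the upper bound of −3.41 set by 3 counts. Most triangles lie left of the circles, the lowest being ANGPTL4 at −5.00 and the highest HK2 at 1.15.

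Among the HIF subunits and their regulators no gene reached a 2-fold difference in either library, and the medians were −0.19 with shRNA 1 and −0.18 with shRNA 2. HIF1A, the oxygen-labile alpha subunit found in most cells, had 5239, 4526 and 3883 counts (−0.45 and −0.62). Its highest value was that of the control. EPAS1, which encodes HIF-2 alpha, had 3389, 3782 and 6349 counts (−0.08 and 0.72), with the shRNA 2 library highest. Within the alpha subunits, compared by the authors' length- and depth-scaled fragment values (FPKM), EPAS1 made up 35.5% of the summed HIF1A and EPAS1 level in the control, 41.5% under shRNA 1 and 58.1% with shRNA 2. The constant partner ARNT stood at −0.31 and −0.66. VHL, the recognition subunit of the ligase that destroys HIF alpha, stood at −0.19 and −0.14, and HIF1AN, the asparaginyl hydroxylase that blocks coactivator binding, at −0.19 and −0.18. With library totals the signs of EPAS1 in the shRNA 1 library and of VHL and HIF1AN in the shRNA 2 library turned positive.

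The HIF targets held the genes furthest below the control, but did not all lie there. Of 12, 4 were at least 2-fold lower in both libraries, 6 were at least 2-fold lower with shRNA 2, and none was 2-fold higher in either. Their medians were −0.72 and −1.16, the latter unmoved when CA9 was set to its bound. ANGPTL4 (ENSG00000167772; chromosome 19, 8363289 to 8374373, plus strand) encodes a secreted inhibitor of lipoprotein lipase. Its counts were 449 in the control, 74 for shRNA 1 and 14 for shRNA 2. The control was the highest and the shRNA 2 library the lowest by a wide margin, 7.18-fold lower with shRNA 1 (ratio 0.139, counting interval 0.107 to 0.178) and 36.5-fold lower with shRNA 2 (ratio 0.0274, interval 0.0149 to 0.0465). The mean log2 fold of ANGPTL4 was −3.90 ± 1.55 (SD, n = 2), and edgeR gave −3.58 (SE 0.86) with a Benjamini-Hochberg adjusted p of 0.219.

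NDRG1 (ENSG00000104419; chromosome 8, 133237171 to 133302022, minus strand), a stress-induced cytoplasmic protein used as a hypoxia marker, had 5083, 890 and 516 counts. Both hairpin libraries lay far below the control, 6.76-fold and 11.2-fold, and closer to each other than ANGPTL4 did. Its mean log2 fold was −3.12 ± 0.51 (SD, n = 2), and edgeR gave −3.08 (SE 0.41) with an adjusted p of 0.0827, the lowest among the 45 genes. BNIP3, a mitophagy receptor of the outer mitochondrial membrane, had 2068, 1214 and 752 counts, which was 2.02-fold and 3.13-fold lower. The shRNA 1 value lay close to the 2-fold line, and with the reads of 39 BNIP3 pseudogenes added (2.42%, 4.20% and 5.72% of the BNIP3 counts) it did not reach it. BNIP3L, the related receptor with the highest FPKM among the HIF targets, had 4443, 3409 and 2683 counts (−0.62 and −0.91).

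EGLN3, a prolyl hydroxylase that hypoxia itself induces, had 138, 68 and 28 counts. It was 2.40-fold and 5.60-fold lower, with the 3 libraries in the same order as for ANGPTL4. EGLN1, the main oxygen sensor of the family, had 1313, 2015 and 1391 counts (0.37 and −0.10), so the paralogues did not follow each other. The EGLN3 share of the summed EGLN1 and EGLN3 FPKM was 7.67% in the control, 2.60% under shRNA 1 and 1.57% under shRNA 2. KDM3A, a histone H3K9 demethylase, had 1852, 1237 and 796 counts (−0.82 and −1.40), past the 2-fold line with shRNA 2.

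CA9, the membrane carbonic anhydrase that is a classical marker of tumour hypoxia, had 28, 27 and 0 counts. With shRNA 2 it was at least 10.6-fold lower than in the control, taking 3 counts as the floor of that library, while the shRNA 1 library was near the control. CA12, a related carbonic anhydrase, had 26, 20 and 21 counts, and ANKRD37, a small ankyrin repeat protein, had 32, 20 and 23, so that differences in either were hard to see at this depth. ADM, a vasodilator peptide, had 239, 278 and 341 counts (−0.02 and 0.33), and MXI1, a MAX partner that opposes MYC, had 437, 490 and 669 (−0.08 and 0.43). These were the HIF targets with the highest log2 folds in the shRNA 2 library. With library totals as the scaling, ADM and MXI1 with shRNA 1 and EGLN1 with shRNA 2 also lay above the control.

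**Figure D2:**
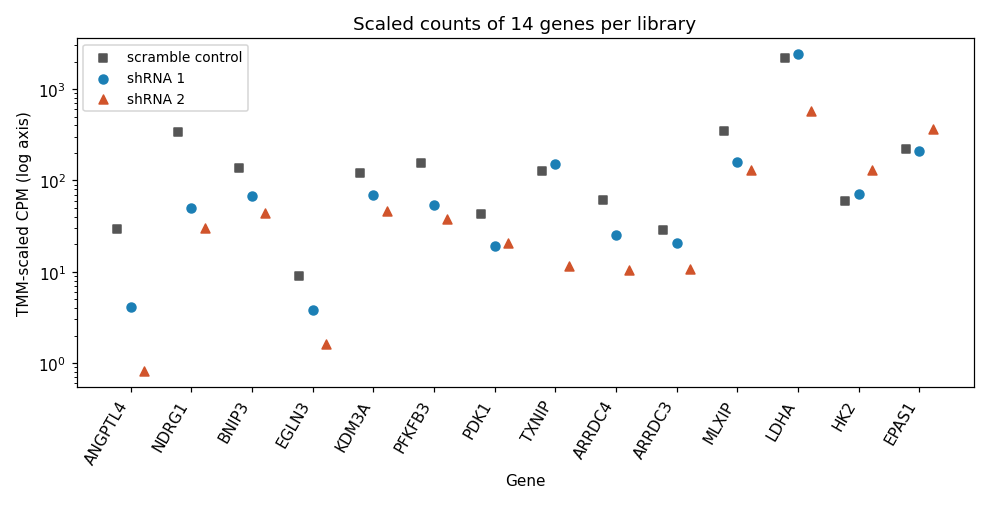
Level of selected genes in each of the 3 libraries on a logarithmic axis (TMM-scaled CPM), 1 point per library. The shRNA 2 library is lowest for ANGPTL4, NDRG1, EGLN3, TXNIP and ARRDC4, whereas for TXNIP the shRNA 1 library is the highest of the 3.

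All 4 regulators of glycolytic flux were below the control in both libraries, with medians of −0.86 and −1.37. PFKFB3 (ENSG00000170525; chromosome 10, 6144934 to 6235545, plus strand), a kinase that makes fructose 2,6-bisphosphate, the strongest activator of phosphofructokinase, had 2328, 955 and 657 counts. Both hairpin libraries lay well below the control, 2.89-fold and 4.03-fold, and PFKFB3 had the highest FPKM of the role. For PFKFB3 edgeR gave an adjusted p of 0.153. Its paralogue PFKFB4 had 488, 382 and 272 counts (−0.59 and −1.02). PDK1, which inactivates pyruvate dehydrogenase and so keeps pyruvate from the mitochondria, had 643, 348 and 353 counts. The hairpin libraries were at nearly the same level, 2.19-fold and 2.07-fold lower. PDK3, another kinase of the complex, had 241, 234 and 83 counts (−0.28 and −1.70), with the shRNA 2 library alone apart.

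Among glycolytic enzymes the libraries split by hairpin: the median over 16 tested enzymes was −0.17 with shRNA 1 and −0.97 with shRNA 2. With shRNA 1 none of the 16 reached a 2-fold difference. With shRNA 2, 8 of the 16 were at least 2-fold lower and 1, HK2, was at least 2-fold higher. The 17 enzymes took 1.29%, 1.26% and 0.699% of all counts. Genes of high level as a whole (at least 100 CPM, 2426 genes) had a median of −0.03 for shRNA 1 and −0.13 for shRNA 2, and 8.70% of them were at least 2-fold lower with shRNA 2. The share of mitochondrial transcripts was also lowest with shRNA 2, as given above.

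Hexokinases, which trap glucose in the cell, lay on opposite sides of the control with shRNA 2. HK1 had 4475, 3831 and 2229 counts (−0.47 and −1.19), lowest with shRNA 2. HK2, the isoform induced in many tumours, had 896, 1268 and 2264 counts (0.26 and 1.15), highest with shRNA 2. By FPKM, HK2 made up 22.1% of the hexokinase level in the control, 32.0% under shRNA 1 and 59.0% with shRNA 2, so the more abundant isoform differed between libraries.

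Upstream of the triose phosphates, GPI, which makes fructose 6-phosphate, had 4316, 5842 and 2789 counts (0.19 and −0.81). The phosphofructokinases PFKP (−0.54 and −0.92) and PFKM (−0.14 and −0.83) were lowest with shRNA 2, while PFKL stood at 0.07 and 0.24. PFKP was the main isoform throughout, with 80.3%, 73.6% and 69.2% of the phosphofructokinase FPKM. ALDOA, the main aldolase, had 15749, 15724 and 8652 counts (−0.25 and −1.05).

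Further down the pathway, TPI1, which interconverts the triose phosphates, had 10939, 8184 and 3807 counts, 1.58-fold and 3.27-fold lower. GAPDH, the oxidising step, had 23601, 22209 and 10956 (−0.33 and −1.29), and PGK1, the first step that yields ATP, had 13730, 11898 and 4753, 1.37-fold and 3.28-fold lower. In these 3 the shRNA 2 library was the lowest by a clear margin. PGAM1, the mutase, had 11656, 10447 and 6218 counts (−0.40 and −1.09). PKM, the final ATP-yielding step, had 43570, 48131 and 24432 (−0.10 and −1.02). Both passed the 2-fold line with shRNA 2 alone. ENO1, the enolase with the highest FPKM of all 46 genes (445.9, 427.8 and 339.9), had 37042, 38241 and 27882 counts (−0.20 and −0.60), and ENO2 stood at −0.08 and −0.25. With library totals PFKM, ENO2 and PKM lay above the control with shRNA 1. Counts listed under 61 GAPDH pseudogenes were between 0.0932% and 0.329% of the GAPDH counts, and those under 13 PGAM1 pseudogenes between 0.0858% and 0.515% of the PGAM1 counts. How reads that fit both a gene and its copies were counted is not stated.

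Lactate dehydrogenase gave the widest split between hairpins among the enzymes. LDHA (ENSG00000134333; chromosome 11, 18394388 to 18408425, plus strand), the subunit that favours lactate production, had 33191 counts in the control, 43748 for shRNA 1 and 9913 for shRNA 2. It was near the control with shRNA 1 (log2 fold 0.16) and 3.81-fold lower with shRNA 2, so that the hairpin libraries differed by 4.24-fold. LDHB, the heart-type subunit, had 4402, 6008 and 3099 counts (0.21 and −0.69). LDHB made up 32.7% and 33.5% of the summed FPKM in the control and shRNA 1 libraries and 53.4% with shRNA 2.

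**Figure D3:**
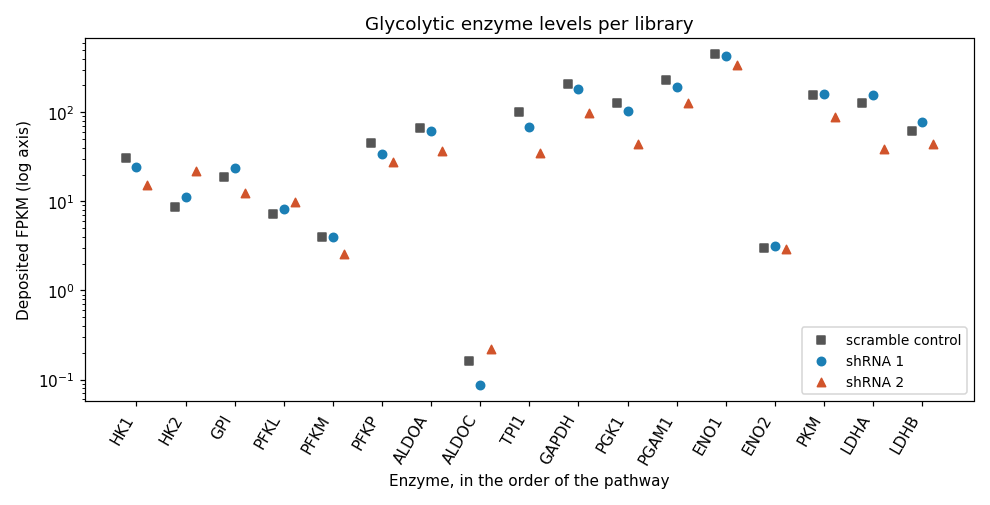
FPKM of the glycolytic enzymes in each library, in pathway order on a logarithmic axis. The shRNA 2 library (triangles) lies below the control for 14 of the 16 tested enzymes, with the widest gaps at TPI1, PGK1 and LDHA, and above it for HK2 and PFKL.

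**Figure D4:**
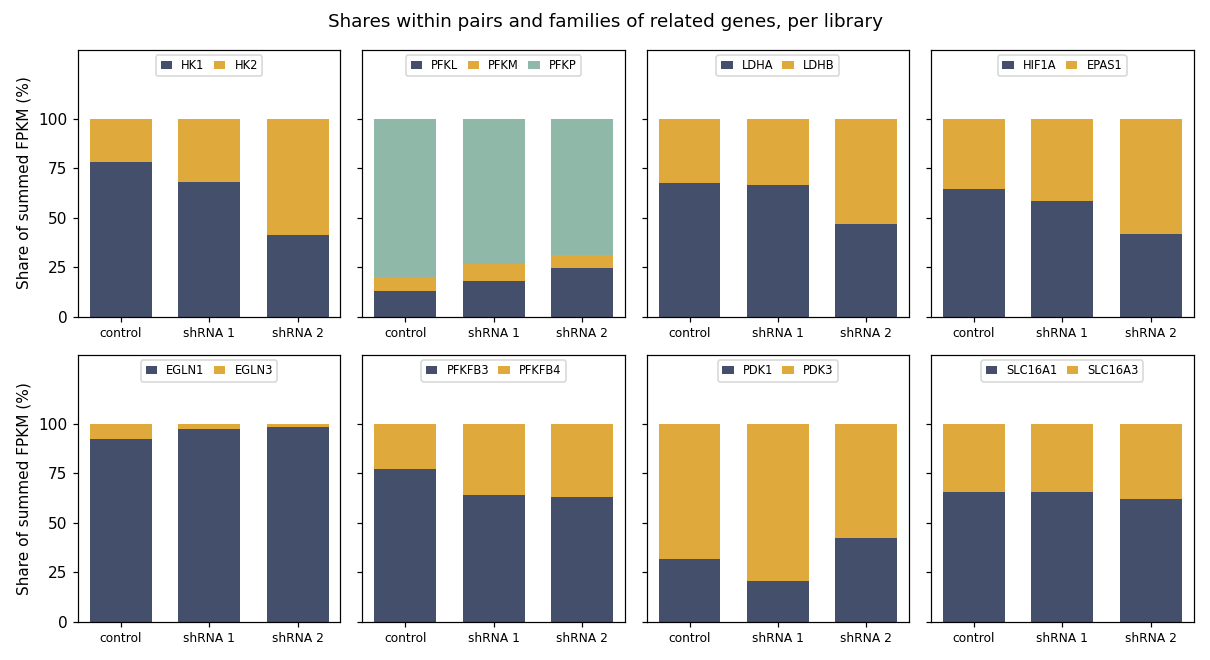
Share of each isozyme in the summed FPKM of its family, in percent, for the 3 libraries. HK2 stands at 22.1%, 32.0% and 59.0%, LDHB at 32.7%, 33.5% and 53.4%, and EPAS1 at 35.5%, 41.5% and 58.1%, in the order control, shRNA 1, shRNA 2.

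Of the 4 transporters only 1 reached a 2-fold difference in any library, and the medians were −0.52 and −0.46. SLC2A1 (GLUT1), the main glucose importer of most tumour cells, had 6580, 4783 and 8099 counts (−0.70 and 0.11), with shRNA 1 lowest and shRNA 2 highest. SLC2A3 (GLUT3), a high-affinity importer, had 402, 220 and 370 counts (−1.11 and −0.30), the 1 case among the 45 tested genes of a 2-fold difference with shRNA 1 and not with shRNA 2. SLC16A1, which carries lactate in either direction, stood at −0.33 and −0.86, and SLC16A3, the exporter of lactate from glycolytic cells, at −0.32 and −0.61. SLC16A3 overlaps CSNK1D on the opposite strand (1900, 2050 and 2192 counts). Of the 46 genes, 11 overlap a tested gene on the opposite strand, among them CA9 with ARHGEF39 (228, 388 and 184 counts) and ANKRD37 with UFSP2 (400, 466 and 436 counts). Since the strand setting of the counting is not given, reads of such pairs cannot be told apart.

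The glucose sensors were all at least 2-fold lower with shRNA 2, and 2 of the 4 were also with shRNA 1 (medians −0.80 and −1.97). TXNIP (ENSG00000265972; chromosome 1, 145992435 to 145996600, minus strand), an arrestin-like protein that binds thioredoxin and promotes removal of glucose transporters from the cell surface, had 1943 counts in the control, 2735 for shRNA 1 and 200 for shRNA 2. With shRNA 1 it stood above the control (0.25) and with shRNA 2 11.1-fold below it (−3.45), the widest gap between hairpin libraries among all 45 tested genes apart from CA9. Set against each other, the shRNA 2 library held 13.1-fold less than the shRNA 1 library (ratio 0.0761, counting interval 0.0656 to 0.0879). ARRDC4, a related arrestin-domain protein that also responds to glucose, had 923, 453 and 180 counts. It was lower in both libraries, 2.41-fold and 5.83-fold. ARRDC3, a further arrestin-domain protein, had 439, 373 and 186 counts (−0.48 and −1.41). MLXIP, which encodes MondoA itself, had 5297, 2855 and 2251 counts, 2.20-fold and 2.68-fold lower, and the hairpin libraries were close to each other.

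The hairpin libraries were also set directly against each other. At least 2-fold lower with shRNA 2 than with shRNA 1 were 10 of the 45 genes (22.2%, against 4.48% of all tested genes), and none was at least 2-fold higher (against 8.35%). These 10 were ANGPTL4, CA9, EGLN3, GPI, TPI1, PGK1, LDHA, PDK3, TXNIP and ARRDC4. Of these, LDHA, GPI and TXNIP lay above the control with shRNA 1 and below it with shRNA 2. With 1 library per hairpin, no test of these differences was possible.

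Other genes of the same pathways were taken from 8 lists. Of their 115 tested genes, 0 passed edgeR's test adjusted over all genes (0.0397% of all tested genes did). An unadjusted edgeR p below 0.05 was found for 21 (10.2% of all tested genes), and 5 passed with DESeq2 (3.49%). Beside the lists below, 4.50% of all tested genes were at least 2-fold lower in both libraries and 5.29% at least 2-fold higher. Of 33 further HIF targets tested, 7 were at least 2-fold lower and 1 at least 2-fold higher in both libraries (medians −0.46 and −0.51). Singly, 9 of the 33 were at least 2-fold lower with shRNA 1 (against 7.38% of all tested genes). With shRNA 2, 12 were (against 8.76%). At least 2-fold higher were 2 with shRNA 1 (against 7.92%) and 5 with shRNA 2 (against 13.0%). Between the hairpin libraries, 5 were at least 2-fold lower with shRNA 2 (against 4.48%) and 6 at least 2-fold higher (against 8.35%). The genes described above gave 10 and 0, so their one-sided split between the hairpin libraries was not seen in this list. Its median log2 difference of shRNA 2 minus shRNA 1 was −0.25. That of the genes described above was −0.48, against 0.00 over all tested genes. LOX, the collagen crosslinking oxidase, had 344, 11 and 18 counts (−4.96 and −4.29), and P4HA2, a collagen prolyl hydroxylase, stood at −1.69 and −1.97. ERRFI1, an inhibitor of the EGF receptor, stood above the control (1.18 and 1.22). LOX and P4HA2 act on collagen. The summed fibroblast and smooth muscle markers, in the control mostly COL1A1, were lower in the same libraries, as given above. Whether these differences belong together was not tested.

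The remaining lists held few genes past the size rule. Of 14 genes of arrestin-domain proteins and of the MondoA, MLX and MAX network, 3 were at least 2-fold higher in both libraries and none lower (medians 0.16 and 0.22). They were MLXIPL, the paralogue of MondoA known as ChREBP, with 21, 68 and 132 counts, MYC, a driver of growth and glycolytic genes, with 646, 1915 and 2509 counts (1.32 and 1.77), and ARRDC1, with 553, 1440 and 1725 counts. Of 11 further transporters, SLC16A7 (1.79 and 1.88) and SLC2A11 (1.65 and 1.24) were at least 2-fold higher (medians 0.07 and −0.34). Of 10 further enzymes of glycolysis and gluconeogenesis it was GPD2, the mitochondrial glycerol phosphate dehydrogenase (1.17 and 1.09; medians −0.07 and 0.09), and of 12 glycogen genes PHKA1, a subunit of phosphorylase kinase (1.14 and 1.01; medians 0.13 and −0.22). None of the 12 genes of pyruvate entry into mitochondria (medians 0.23 and −0.10), of the 9 of the pentose phosphate pathway (0.35 and 0.05) or of the 14 further genes of oxygen sensing (−0.23 and 0.06) was 2-fold away in the same direction in both libraries.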

How the data were processed

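PolyA+ RNA of 3 UM-UC-3 libraries was sequenced. The deposited table holds whole-number read counts and FPKM per gene, both made by the authors; TopHat2 2.0.9 and hg38 are named per the submitters' processing notes. The counting tool, strand setting and annotation were not given in the sources used here. Of 50871 lines, 4 that hold the broken entry of 1 gene (TGFB1) were left out. Between libraries, FPKM was a constant times the count, so counts were compared and FPKM served only to set genes side by side.

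Genes whose mean reached 1 CPM (15132) were tested. Counts were scaled with TMM factors (0.924, 1.02 and 1.06) in edgeR 4.0.16 under R 4.3.3, and log2 folds used a prior count of 2. Both hairpin libraries were compared with the control by edgeR's quasi-likelihood test, two-sided, with 1 residual degree of freedom, adjusted by Benjamini-Hochberg over all tested genes. The fit was tested on simulated data with known folds. DESeq2 1.42.0 and limma 3.58.1 were alternatives. Size rules (2-fold) carry no test. Intervals (95%) are exact conditional binomial intervals of count ratios; they and the floor of 3 counts cover counting error only, since reads carry no molecular identifiers.

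Named with counts were genes at least 2-fold away from the control in either hairpin library and the gene of highest mean FPKM in each role; from each of the other lists up to 3 genes 2-fold away in 1 direction with both hairpins, by the smaller fold. 1 gene that this rule names is not reported here. ERRFI1 is named beside them as the 1 higher HIF target. The genes, roles, marker lists (urothelial and epithelial, leukocyte, endothelial, fibroblast and smooth muscle) and pathway lists were chosen with earlier results of these data known. Settings tried were other scalings, filters, prior counts, added pseudogene reads and leaving out each hairpin library.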

Additional observations from a re-analysis of the deposited data

Results flagged for a closer look

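In 9 of the 45 tested genes the shRNA 1 and shRNA 2 libraries lay on opposite sides of the control, and in 6 of them the counting intervals of both ratios lay away from 1. The other 3, ADM, MXI1 and EGLN1, had an interval that held 1 in at least 1 library. Of all 15132 tested genes, 34.1% lay below the control in both libraries and 37.1% above it in both, against 75.6% and 4.44% of these 45. A split between the hairpin libraries was therefore not particular to these genes. The values of the 6 below are log2 differences of the shRNA 2 library minus the shRNA 1 library, and none of them was tested, since each hairpin has 1 library. TXNIP stood at −3.70 and LDHA at −2.08, with shRNA 2 the lower. GPI stood at −1.01 and LDHB at −0.90, also lower with shRNA 2. EPAS1 stood at 0.80 and SLC2A1 at 0.82, higher with shRNA 2. With library totals as the scaling, EPAS1 lay above the control in both libraries. Counting intervals do not cover the spread between cultures.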

How the results depend on the processing

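The count of genes at least 2-fold lower with both hairpins was 5 with library totals (3.65% of all tested genes), beside 8 (4.50%) as reported. When either hairpin library was left out, 9 to 21 genes were at least 2-fold lower in the remaining library alone (7.31% and 9.34%), a looser rule. The count at least 2-fold higher in the remaining library was 1 without the shRNA 1 library, where 12.8% of all tested genes were. Without the shRNA 2 library it was 0, where 7.73% of all tested genes were. DESeq2 passed 3 genes where edgeR passed none; leaving out a hairpin library leaves 1 library against 1, so edgeR has no test then. Library totals moved the all-gene medians to 0.14 and 0.24, and against that shift the mean-fold median of HIF subunits and regulators was −0.02 and that of transporters −0.36 (−0.19 and −0.53 as reported). With shRNA 2 alone the median of HIF subunits and regulators turned to 0.02 under library totals. For HIF subunits and regulators DESeq2 size factors gave −0.22, no filter −0.22 and the filter of 5 CPM −0.17. Under library totals 10 of 90 single-library folds no longer reached their side of the 2-fold line, and signs turned in shRNA 1 for ADM, MXI1, EPAS1, PFKM, ENO2 and PKM and in shRNA 2 for EGLN1, VHL and HIF1AN. The cause was not tested.

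Without either hairpin library the medians ranged from −0.94 to −0.72 for HIF targets, −0.21 to −0.19 for HIF subunits and regulators, −0.99 to −0.17 for glycolytic enzymes, −1.40 to −0.86 for flux regulators, −0.51 to −0.49 for transporters and −2.00 to −0.80 for glucose sensors. Without the shRNA 1 library CA9 (28 counts in the control, 0 with shRNA 2) fell below the filter of 1 CPM. It is therefore missing from the −0.94, beside −1.16 for shRNA 2 with CA9 included, and from the 21 genes above. Shares of isozymes, as the mean change over control in percentage points, came to −12.1 for PFKP, 0.208 for ENO2, −1.37 for SLC2A3, −6.89 for EGLN3 and 11.6 for PFKFB4 when counts were not divided by length (−8.86, 0.118, −0.932, −5.59 and 13.6 as reported), and SLC2A3 came to −0.618 with pseudogene reads added. Without either hairpin library they ranged from 9.83 to 36.9 for HK2, −11.1 to −6.65 for PFKP, −0.100 to 0.343 for ALDOC, 0.0557 to 0.180 for ENO2, 0.772 to 20.7 for LDHB, −0.941 to −0.922 for SLC2A3, 0.146 to 3.86 for SLC16A3, −6.10 to −5.07 for EGLN3, 6.05 to 22.7 for EPAS1, −10.8 to 11.1 for PDK3 and 13.2 to 14.0 for PFKFB4. The counts of genes apart between hairpin libraries stayed between 7 and 11 over the alternatives run. No paired analysis was possible because the control is a single library and the hairpin numbers name different hairpins. The single control limits every fold, and low genes such as CA12, ANKRD37 and CA9 are limited by depth.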

Other observations

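Of the 46 genes, 4 lie between bases 6533927 and 7936275 of chromosome 12 (hg38), with other genes between them. Their folds differed from each other, and the arrangement was picked out after the values were seen. GAPDH starts at 6533927, TPI1 at 6867119 and ENO2 at 6913745, all on the plus strand, and SLC2A3 lies on the minus strand from 7919230 to 7936275. With shRNA 2 the log2 folds were −1.29 for GAPDH and −1.71 for TPI1, against −0.25 for ENO2, the next of them along the chromosome, and −0.30 for SLC2A3. With shRNA 1 SLC2A3 stood lowest at −1.11, TPI1 at −0.66, GAPDH at −0.33 and ENO2 at −0.08. These 4 genes did not share 1 size of difference in either library. The genes between them were not compared.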
